A study of Drosophila melanogaster with 6 samples.

Results

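Lysosomes break down glycans, lipids and proteins delivered by endocytosis and autophagy, using soluble hydrolases that work at low pH and membrane proteins that carry products and lipids out. Loss of single components causes storage disorders in humans, among them the neuronal ceroid lipofuscinoses and the mucopolysaccharidoses. The genes described here are 10 lysosomal enzyme and membrane genes of the fly, listed by symbol. Cln3, Sgsh and Hexo2 lead the list because their levels in these same arrays were already known to be low in the mutants. Hexo1, fdl, Ppt1, Ppt2, Npc1a, cathD and spin were set beside them to ask whether these 3 genes fell alone or with others of the lysosome. Each gene was represented by the probe set annotated to that gene alone with the highest mean over all arrays. This gave 9 of the 10 genes, out of 11982 genes with such a probe set, and every one of the 9 had a single such probe set. Hexo1 is not analysed here, since no probe set of the annotation table names it.

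The RNA came from dissected proboscises, the feeding organ that carries the taste bristles of the head, of male Drosophila melanogaster aged 8 to 18 days after eclosion. One genotype was poxn70 homozygous and the other poxn70 heterozygous, so both carried the poxn70 allele of Pox neuro and neither was wild type. Pox neuro (Poxn) encodes a paired-box transcription factor on which the chemosensory fate of taste bristles depends. Each genotype had 3 biological replicates with 1 array each, and 164 to 280 proboscises were pooled per array. Values are log2 GCRMA values, a background-corrected and normalized array intensity, differences are homozygous minus heterozygous, and values under 3 were treated as background. Levels of different genes cannot be set against each other on this scale, because each probe set binds with its own strength.

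Poxn itself gave no check of the genotypes, with 2.65, 2.37 and 2.37 in homozygous proboscises and 2.36, 2.30 and 2.37 in heterozygous ones, all under the limit of 3. Homozygous replicate 1 stood somewhat apart, with a mean correlation of 0.971 to the other arrays over all probe sets, against 0.984 to 0.987 for the rest. Gr66a and Gr33a, receptors of bitter taste neurons, were far above background in heterozygotes, Gr66a at 9.17, 9.95 and 9.96, which is what taste tissue carries. Of markers of other organs, the testis marker bol was above the limit on all arrays (4.73 to 5.94 in homozygotes, 4.81 to 4.91 in heterozygotes), Mst98Ca exceeded it on 3 arrays, and the accessory gland marker Acp36DE reached 6.71 in heterozygous replicate 1 alone. The other 6 markers of these organs were under the limit on all 6 arrays.

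Cln3, Sgsh and Hexo2 were lower in homozygous proboscises, and the groups did not overlap for any of them. Because the 3 genes were picked for this difference, their values are a description and carry no test. Cln3, a membrane protein of the late endosome and lysosome whose human counterpart is mutated in juvenile neuronal ceroid lipofuscinosis, had 3.39, 3.29 and 3.38 in homozygotes, against 7.21, 7.49 and 8.04 in heterozygotes. All homozygous values lay close above the background limit, and the heterozygous values lay far above it. The means of Cln3 were 3.35 ± 0.06 and 7.58 ± 0.42 (SD, n = 3 each), a difference of -4.22 (SE 0.29), or 18.7-fold lower.

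Sgsh, the sulfamidase that removes sulfate groups from heparan sulfate and whose loss causes a form of Sanfilippo syndrome in humans, had 4.60, 4.38 and 4.80 in homozygotes, against 8.73, 8.82 and 8.14 in heterozygotes. The difference was -3.97 (SE 0.26), or 15.6-fold lower, and every homozygous value was above background. Hexo2, a beta-hexosaminidase that cuts terminal amino sugars from glycans, had 9.19, 9.74 and 9.60 in homozygotes, against 11.68, 11.71 and 11.33 in heterozygotes. It was 4.18-fold lower (-2.06, SE 0.19), with every homozygous value far above background. Counted from the largest decrease, Cln3, Sgsh and Hexo2 ranked 30, 31 and 116 among the 11982 genes.

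**Figure D1:**
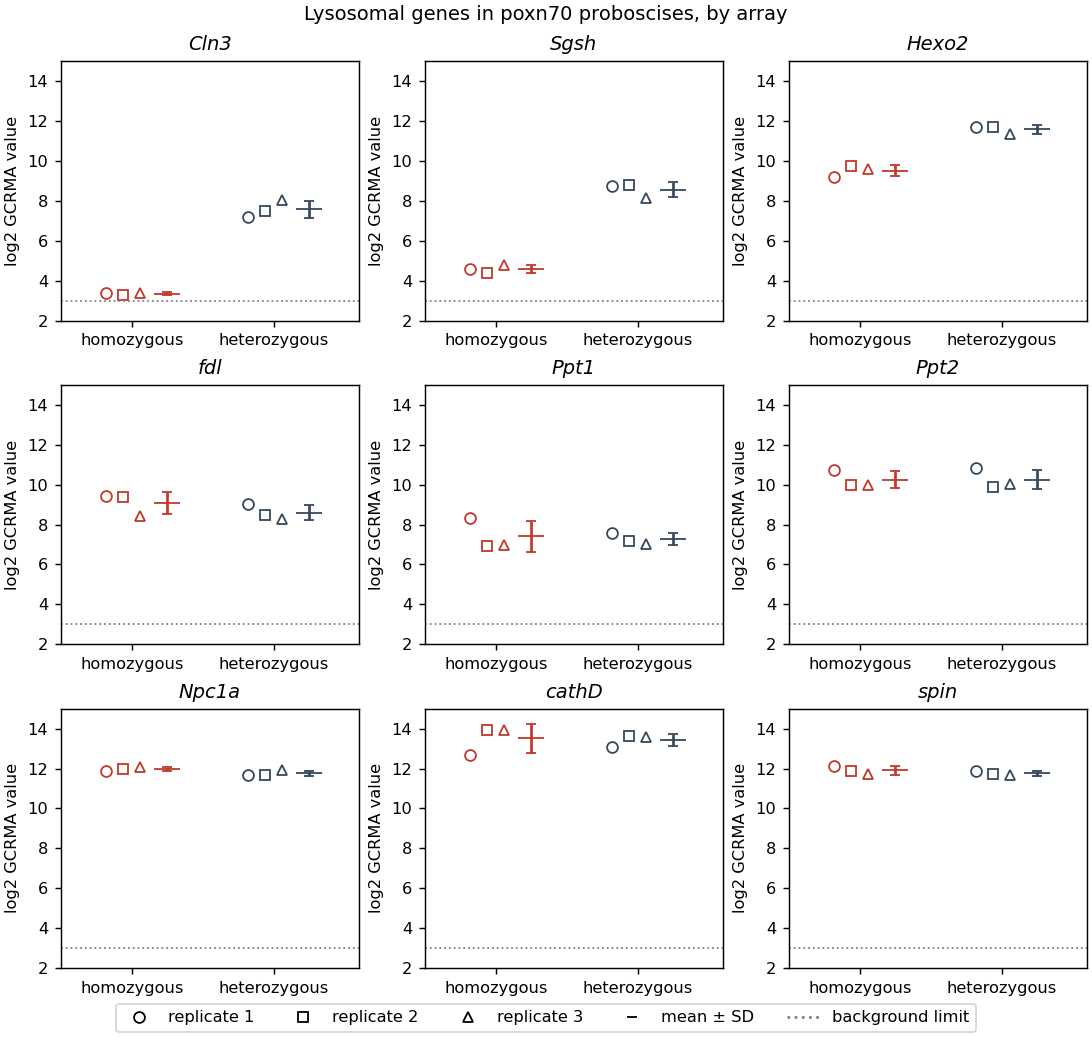
Log2 GCRMA value (vertical axis) of the 9 lysosomal genes in 3 homozygous arrays (left in each panel) and 3 heterozygous arrays (right), with the mean ± SD beside the points and the background limit of 3 dotted. The homozygous points of Cln3, Sgsh and Hexo2 lie below all heterozygous ones, and the groups overlap in the other 6 genes.

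The adjusted p values by which the 3 genes were chosen were 0.0176 for Cln3, 0.0176 for Sgsh and 0.0349 for Hexo2, from limma over all probe sets, and they describe that choice. At the threshold of 0.05 this fit called 3 of the 9 genes lower and 0 higher, where 0.442% of all genes were called lower and 0.0751% higher. The choice of members fixes the first count, so nothing is read from it. Hexo2 is the member closest to the threshold on its inner side, and the next members outside it, fdl, Npc1a and spin, stood at 0.611. Deviations of same-numbered arrays correlated at 0.142 to 0.372. The pairing is uncertain, since homozygous replicate 3 correlated more with heterozygous replicate 2 (0.275) than with heterozygous replicate 3 (0.142). With the replicate block the adjusted p values (limma) became 0.268, 0.271 and 0.298, so 0 members were called. With the replicate number as a random effect, chosen after seeing the data, all 3 were called (0.00593, 0.00695 and 0.0135). The differences themselves are the same with either block. With 1 array left out at a time between 0 and 3 members were called, and only homozygous replicate 1 could be left out with all 3 calls kept. Cln3 alone was called without heterozygous replicate 1, and none of the 3 without homozygous replicate 2 or 3 or without heterozygous replicate 2 or 3.

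The other 6 measured lysosomal genes did not fall with them. None of the 6 had groups that stood apart, so 0 were lower and 0 higher without overlap, where 5.83% of all genes were lower and 16.3% higher. With so few genes, 0 says little against these shares. The 3 of 9 members that were lower without overlap are the 3 genes picked for this difference, so nothing is read from that count. The 6 companions had a median difference of 0.15, against 0.00 (0.00472) over all genes, and their adjusted p values over all probe sets ran from 0.611 to 0.990 (limma) and from 0.334 to 0.947 with the replicate block. Without the block 0 of the 6 had an unadjusted p under 0.05, and with it Npc1a alone did. The list was drawn up with results of these arrays known, so these p values describe the companions and are no independent evidence.

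Among the soluble hydrolases, cathD, the aspartic protease cathepsin D, had 12.67, 13.94 and 13.93 in homozygotes, against 13.06, 13.63 and 13.56 in heterozygotes. Its homozygous values lie on both sides of the heterozygous ones, with a difference of 0.10 and a 95% interval of -0.94 to 1.13. Ppt1, a palmitoyl-protein thioesterase that strips fatty acids from proteins and is mutated in infantile ceroid lipofuscinosis in humans, had 8.32, 6.94 and 7.001 in homozygotes, against 7.59, 7.19 and 7.04 in heterozygotes. A single homozygous array was high and the other two were below all heterozygous values, for a difference of 0.15 (95% interval -0.95 to 1.25). Ppt2, the related thioesterase, had 10.75, 9.999 and 9.999 in homozygotes, against 10.83, 9.91 and 10.04 in heterozygotes. Its means were nearly equal, with a difference of -0.01 (95% interval -0.87 to 0.86).

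The gene fdl (fused lobes) encodes a hexosaminidase of the same enzyme family as Hexo2, best known for trimming N-glycans of glycoproteins. It had 9.41, 9.40 and 8.42 in homozygotes, against 9.05, 8.48 and 8.28 in heterozygotes. Its difference was 0.47 (95% interval -0.43 to 1.38), the highest of the 9 and of opposite sign to that of Hexo2.

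Both membrane proteins among the companions had small differences with narrow intervals. Npc1a, which moves sterols out of the late endosome, had 11.87, 11.97 and 12.08 in homozygotes, against 11.69, 11.70 and 11.92 in heterozygotes. The lowest homozygous value lay under the highest heterozygous one, and the difference was 0.21 (95% interval -0.08 to 0.49). The gene spin (spinster), a lysosomal efflux transporter needed to re-form lysosomes after autophagy, had 12.15, 11.90 and 11.71 in homozygotes, against 11.87, 11.73 and 11.66 in heterozygotes. Its difference was 0.16 (95% interval -0.20 to 0.53).

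The intervals bound what a shared decrease could have been. At their lower ends they allow a decrease of 1.05-fold for Npc1a, 1.15-fold for spin, 1.35-fold for fdl, 1.83-fold for Ppt2, 1.91-fold for cathD and 1.93-fold for Ppt1. Each of these is smaller than the decrease of Hexo2, whose own interval runs from -2.55 to -1.57. The intervals come from the fit without the replicate block and cover 1 gene at a time.

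**Figure D2:**
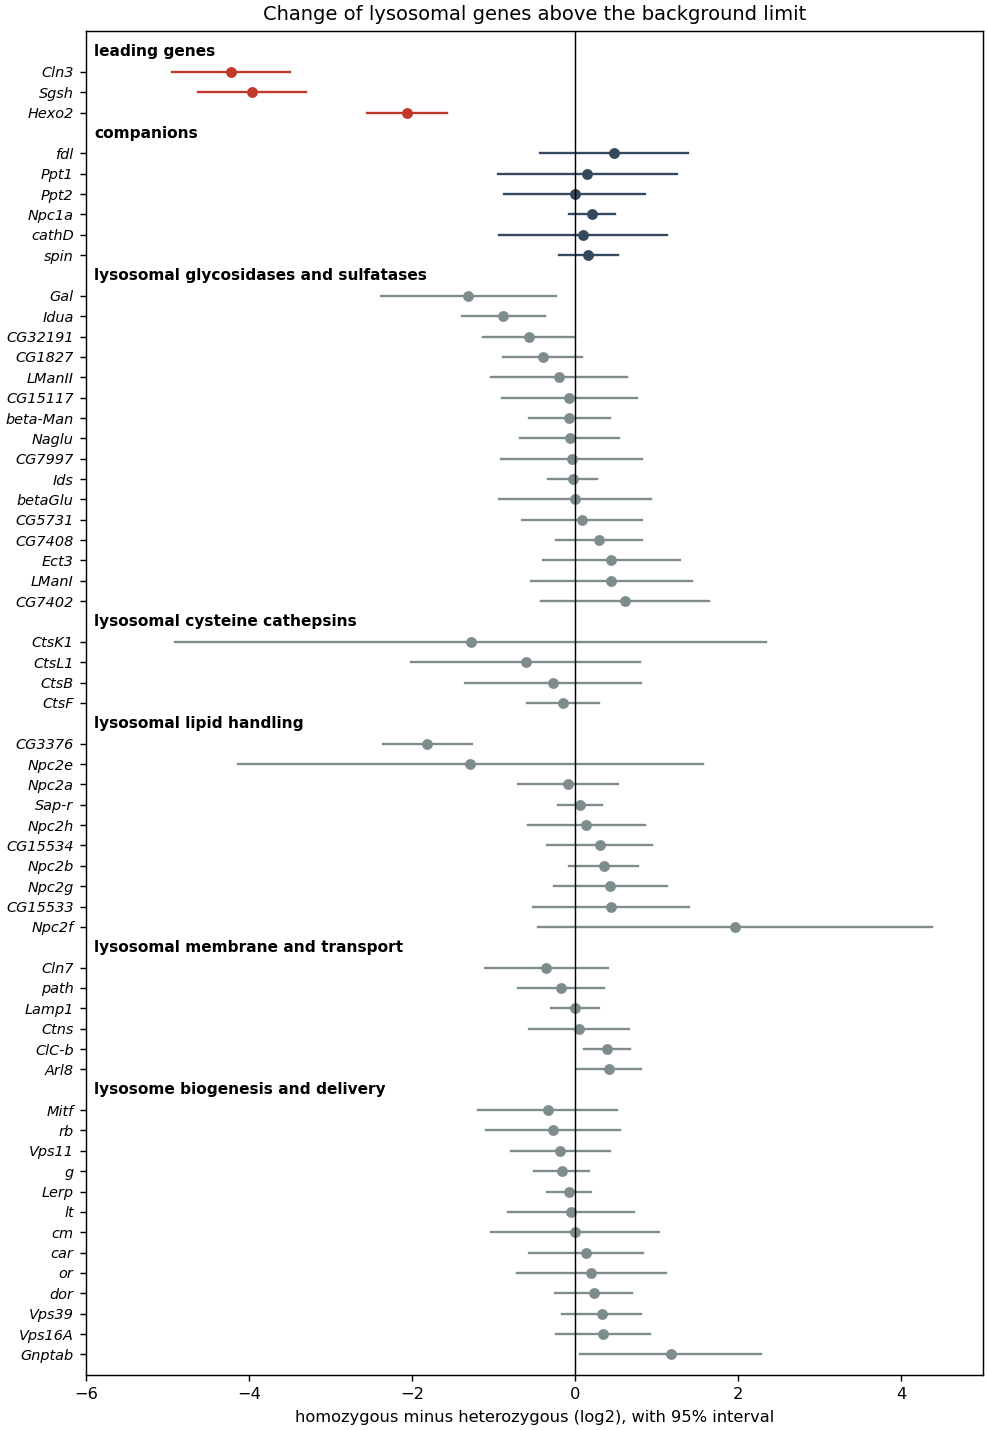
Difference in log2 value (horizontal axis, homozygous minus heterozygous, dots) with its 95% interval (lines) for the 9 lysosomal genes and for 49 further lysosomal genes above background in at least 1 genotype, grouped by role. Cln3, Sgsh and Hexo2 lie at -4.22, -3.97 and -2.06, the 6 companions lie between -0.01 and 0.47, and CG3376 is the gene outside the list nearest to the 3.

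Within each genotype the array numbered 1 lay at an end of the range for each companion. In both genotypes it held the highest value of fdl, Ppt1, Ppt2 and spin and the lowest value of cathD and Npc1a. For fdl in homozygotes replicates 1 and 2 were nearly tied (9.41 and 9.40). Ppt1 deviated from its genotype mean by 0.90 in homozygous replicate 1 and by 0.32 in heterozygous replicate 1, and cathD by -0.84 and -0.36. Cln3 was highest in homozygous replicate 1 and lowest in heterozygous replicate 1. Sgsh was highest in replicate 3 of the homozygotes and replicate 2 of the heterozygotes, and Hexo2 in replicate 2 of both. The deviations of these 3 genes from their genotype means stayed between -0.42 and 0.46. Whether replicate 1 of both genotypes shared a preparation is not stated by the labels, and the part of the replicate number in the companions' values was not tested.

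**Figure D3:**
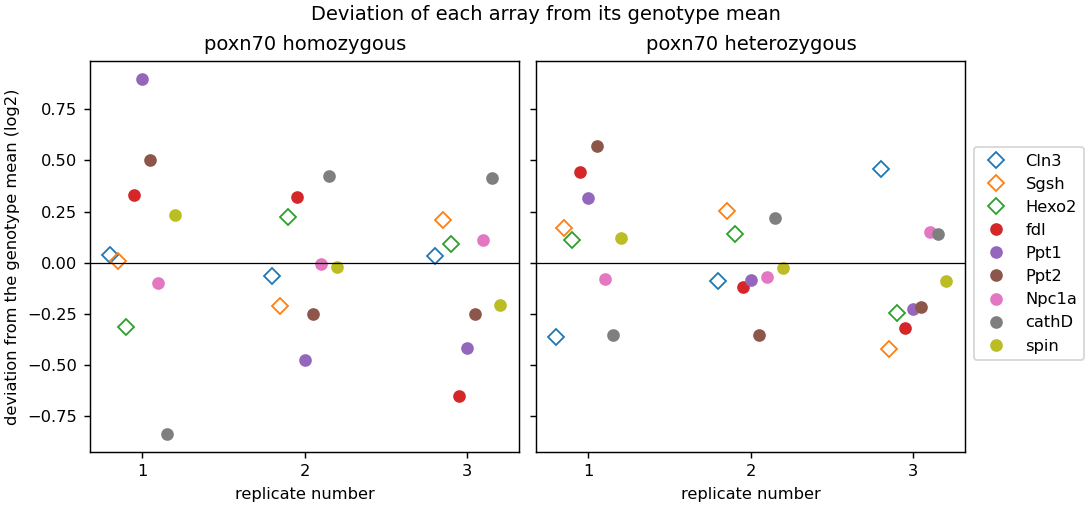
Deviation of each array from its genotype mean (vertical axis, log2) by replicate number (horizontal axis) for homozygous arrays (left) and heterozygous arrays (right), with open diamonds for Cln3, Sgsh and Hexo2 and filled circles for the 6 companions. Ppt1, Ppt2, fdl and spin are highest and cathD and Npc1a lowest in replicate 1 of both genotypes.

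Beyond the members, 65 further genes of the lysosome were looked up, and 55 had a probe set of their own. Of these 55, 0 were called lower and 0 higher over all probe sets by limma, beside the 0.442% and 0.0751% of all genes. At an unadjusted p under 0.05 4 were lower and 3 higher (7.27% and 5.45%), where 3.86% of all genes were lower and 4.84% higher. Without overlap 5 were lower and 8 higher (9.09% and 14.5%, beside 5.83% and 16.3% of all genes), and the median difference was 0.00 (-0.00164). The higher ones include LManIII and Npc2c, which were under background on all arrays. Among genes above background in at least 1 genotype, 5 of 49 were lower and 6 higher without overlap, beside 678 and 1057 of all 7930 such genes.

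Among 20 glycosidases and sulfatases none was called. At an unadjusted p under 0.05 3 were lower and 0 higher (15% and 0%, beside 3.86% and 4.84% of all genes). Without overlap 4 were lower and 3 higher (20% and 15%, beside 5.83% and 16.3% of all genes), the higher ones including LManIII at background. Gal, a beta-galactosidase, had 10.16, 8.75 and 8.92 in homozygotes and 10.94, 10.39 and 10.42 in heterozygotes, a difference of -1.31 (limma adjusted p = 0.593). Idua, the iduronidase that acts on heparan and dermatan sulfate, was at 3.66 ± 0.19 and 4.54 ± 0.28 (difference -0.88, SD, n = 3 each, limma adjusted p = 0.321). CG32191, a predicted sulfatase, was at 6.48 ± 0.33 in homozygotes and 7.05 ± 0.09 in heterozygotes (SD, n = 3 each, limma adjusted p = 0.611). Naglu and Ids, which like Sgsh take part in heparan sulfate breakdown and are named for that, had differences of -0.07 and -0.03. Their intervals allow decreases of 1.599-fold and 1.26-fold. Ids, at 3.53 in homozygotes and 3.56 in heterozygotes, lay close to the background limit of 3 and had little room to show a decrease.

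The 4 cysteine cathepsins, lysosomal proteases, had lower homozygous means, and none had an unadjusted p under 0.05. The lowest value of each was in homozygous replicate 1. Without that array the differences turned to 0.35 for CtsK1, 0.20 for CtsB and 0.02 for CtsF, and that of CtsL1 was 0.00 (-0.0033). Reading this list without that array was chosen after its values were seen. The same omission enlarged other lysosomal decreases, to -1.75 for Gal and to -1.99 for CG3376, a gene of lipid handling described below. CtsK1 had 7.28, 12.22 and 12.11 in homozygotes, against 11.47, 12.04 and 11.94 in heterozygotes (difference -1.28, limma adjusted p = 0.638). CtsL1 had 12.16, 13.93 and 14.02 in homozygotes, against 13.68, 14.18 and 14.07 in heterozygotes. The differences of CtsL1, CtsB and CtsF were -0.61, -0.27 and -0.15. The low array is the one that stood apart over all probe sets, and it is also the array with the lowest cathD.

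Of 12 genes of lysosomal lipid handling, 0 were called by limma. At an unadjusted p under 0.05 1 was lower, CG3376 (8.33%, beside 3.86% of all genes). CG3376, a predicted acid sphingomyelinase, had 9.24, 8.56 and 8.85 in homozygotes, against 10.63, 10.94 and 10.52 in heterozygotes. The groups were well apart, at 3.51-fold lower (-1.81, SE 0.22), and limma gave an adjusted p of 0.0615 over all probe sets, 0.334 with the replicate block and 0.0165 to 0.282 over the other alternatives. Npc2f, a sterol-binding family member, was at 7.05 ± 1.83 in homozygotes and 5.09 ± 0.32 in heterozygotes (SD, n = 3 each, limma adjusted p = 0.611), with 8.93 in homozygous replicate 1 and 5.26 in replicate 3. Npc2b had a difference of 0.35 (limma adjusted p = 0.611).

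Among 6 membrane and transport genes limma called 0, with 2 higher at an unadjusted p under 0.05 (33.3%). Among 13 biogenesis and delivery genes it called 0, with 1 higher (7.69%), beside 4.84% of all genes. ClC-b, a chloride transporter of the lysosomal membrane, had 10.53, 10.69 and 10.55 in homozygotes, against 10.36, 10.07 and 10.18 in heterozygotes (0.39, limma adjusted p = 0.519). Arl8, a small GTPase that moves lysosomes along microtubules, had a difference of 0.41 with groups that did not overlap (limma adjusted p = 0.611). Cln7, whose human counterpart is another ceroid lipofuscinosis gene, had a difference of -0.35 and an interval that allows a 2.16-fold decrease. Gnptab, named for the enzyme that in mammals tags hydrolases for the lysosome, was at 6.65 ± 0.80 in homozygotes and 5.48 ± 0.10 in heterozygotes (SD, n = 3 each, limma adjusted p = 0.611). The tethering subunits Vps39 and Vps16A had differences of 0.32 and 0.34.

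Neighbours of Cln3, Sgsh and Hexo2 in gene order along the chromosomes were also read. The 3 nearest measured genes on either side gave 0 calls for each of them, but only 2 of the 6 around Cln3, 4 of 6 around Sgsh and 5 of 6 around Hexo2 were above background in either genotype. The rest could not show a decrease. Around Cln3 the differences ran from -0.57 to 0.03, the lowest being the sulfatase gene CG32191, adjacent to it among measured genes. Around Sgsh they ran from -1.01 (CG14292) to 0.18. EndoA, an endocytic membrane-shaping protein whose gene is adjacent to Sgsh among measured genes, was at 8.78 in homozygotes and 9.59 in heterozygotes. Its groups did not overlap (limma adjusted p = 0.291). Around Hexo2 they ran from -0.08 to 0.35, and Ppt1, the companion described above, is the third measured gene from Hexo2.

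Genes with the most similar values over the 6 arrays are given here as a description, since the measure uses the same genotype difference that chose Cln3, Sgsh and Hexo2. By Pearson correlation over the 6 arrays among 7929 genes above background in at least 1 genotype, the closest to Cln3 were CG30047 (r = 0.9998), the bitter receptor Gr32a (0.9997) and the bitter receptor Gr47a (0.9987). The closest to Sgsh were Osi8 (0.9962), the bitter receptor Gr93b (0.996) and CG15036 (0.9954), and the closest to Hexo2 were CG33090 (0.9947), MFS9 (0.9942) and Eglp2 (0.9938). All 3 genes named for Cln3 and all 3 named for Sgsh were under the background limit in every homozygous array. In all, 111 genes exceeded 0.95 with Cln3, 112 with Sgsh and 92 with Hexo2.

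Lists of taste bristle and neuron markers had lower summed levels in homozygotes beside Cln3, Sgsh and Hexo2. A sum weighs the highest values most, so it can follow a single gene of a list. Among all genes 5.83% were lower without overlap, and limma without the block called 0.442% lower. Of 4 bitter neuron markers 3 were lower without overlap, and limma without the block called these 3 lower. The summed level of the 4 was 4.42 to 5.45 in homozygotes and 9.73 to 10.46 in heterozygotes (log2 of the summed linear values). Gr89a, the other marker of that list, was under the background limit on all arrays. Of 5 sheath and support cell markers 3 were lower without overlap, and limma without the block called these 3 lower. They were nompA (difference -4.33), pros (-3.05) and Obp49a, the last at 12.95 in homozygotes and 15.16 in heterozygotes. Obp19d and Obp57a overlapped between genotypes, with differences of -0.18 and 0.15. The summed level of this list was 15.27 to 15.57 in homozygotes and 16.07 to 16.35 in heterozygotes. Of 6 general neuron markers 2 were lower without overlap, 1 had an unadjusted p under 0.05 and 0 were called. Their summed level was 10.45 to 10.93 in homozygotes and 11.59 to 11.73 in heterozygotes, with brp and para under the limit throughout. In this list Appl was at 10.02 in homozygotes and 11.18 in heterozygotes, and nSyb and futsch overlapped, with differences of -0.57 and -0.43. In RNA from a whole organ, fewer cells of a type and less RNA per cell cannot be told apart. The part of these cell types in the decrease of the 3 lysosomal genes was not tested.

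Blood cell markers had higher homozygous means, and limma called 0 of the 7. Of these 7, 3 were higher without overlap, where 16.3% of all genes were, with a summed level of 12.27 to 12.66 in homozygotes and 11.47 to 11.81 in heterozygotes. PPO1, a prophenoloxidase, was at 10.74 ± 0.20 in homozygotes and 9.57 ± 0.12 in heterozygotes (SD, n = 3 each, limma adjusted p = 0.0614). The groups overlapped for PPO2, at 10.59 ± 0.75 in homozygotes and 9.65 ± 0.32 in heterozygotes (SD, n = 3 each, limma adjusted p = 0.611). Summed levels overlapped between genotypes for 5 glia markers (13.46 to 14.14 in homozygotes, 13.65 to 13.86 in heterozygotes) and 4 fat body markers (14.94 to 15.41 and 14.83 to 15.23). They also overlapped for 5 muscle markers (13.21 to 13.70 and 13.62 to 13.90), of which 4 had lower homozygous means, with a median difference of -0.96 and 0 calls. The summed level of the 6 companion lysosomal genes overlapped too, at 14.10 to 14.63 in homozygotes and 14.15 to 14.35 in heterozygotes. The part of blood cells in the companions' small positive differences was not tested.

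**Figure D4:**
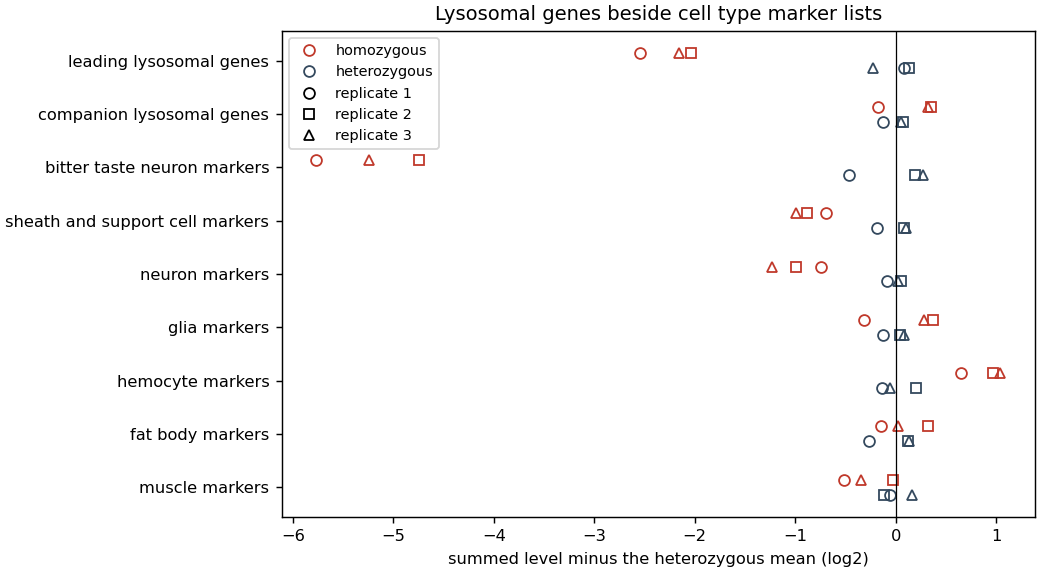
Log2 summed level of each list minus its heterozygous mean (horizontal axis) by array, with homozygous arrays above heterozygous arrays in each row. Cln3, Sgsh and Hexo2 together lie below 0 in all homozygous arrays, as do the bitter neuron, support cell, neuron and muscle markers. The hemocyte markers lie above 0 there, and the muscle points of the genotypes overlap.

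The differences of Cln3, Sgsh and Hexo2 were negative in every setting tried, and those of some companions changed sign. Cln3, Sgsh and Hexo2 were picked for well separated groups, and every setting reuses the same arrays. Their sign could therefore hardly change and is no support. Several settings, the replicate block among them, alter only the p values and leave the differences as they were. Over 16 alternatives the difference lay between -4.43 and -3.99 for Cln3, between -4.18 and -3.84 for Sgsh and between -2.19 and -1.85 for Hexo2. Those of fdl, Npc1a and spin stayed above 0, between 0.05 and 0.80 over the 3 genes, while Ppt1, Ppt2 and cathD took either sign when single arrays were left out. None of the 6 companions was called in any of these alternatives.

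**Figure D5:**
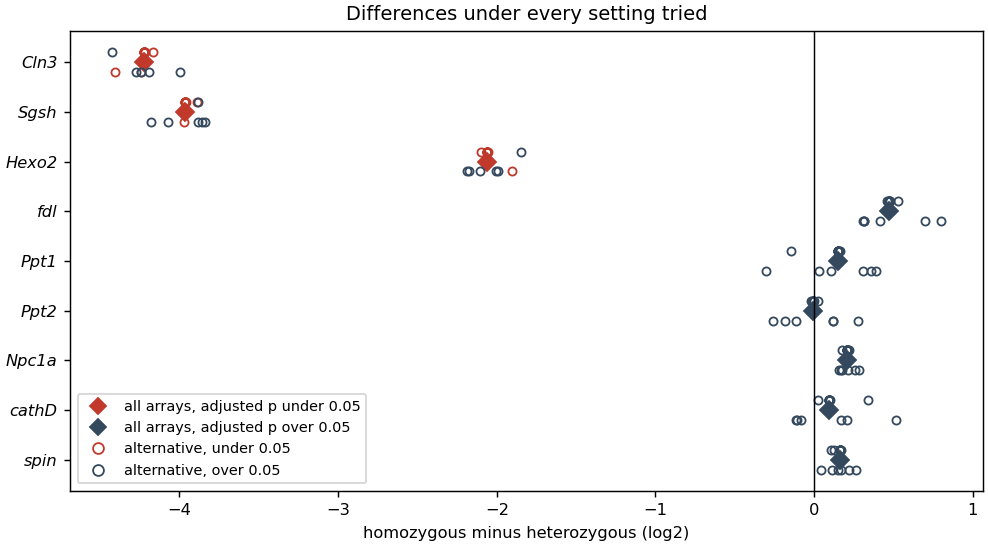
Difference in log2 value (horizontal axis, homozygous minus heterozygous) of the 9 lysosomal genes with all arrays (diamonds), under processing alternatives (circles above the row) and without 1 array (circles below the row), in red where the limma adjusted p was under 0.05. Cln3, Sgsh and Hexo2 stay near -4.22, -3.97 and -2.06 in every setting, fdl, Npc1a and spin stay above 0, and Ppt1, Ppt2 and cathD lie on either side of it.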

How the data were processed

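Total RNA of 6 proboscis samples, about 50 ng each, went through 2 rounds of amplification to biotin-labelled cRNA and was hybridized to single-colour arrays, per the labels' protocols. The authors deposited log2 values made with GCRMA, as the submitters' processing notes name it without a version, and the log2 scale was read from their range. GCRMA pulls probe sets without signal into a narrow low band, so folds that reach this band are understated. Of 18952 probe sets 183 were controls and were left out. Names came from the platform annotation, updated through RefSeq (13544 of 13647 single-gene probe sets matched). Probe sets of several genes named none.

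The genotype difference was estimated by limma 3.58.1 under R 4.3.3 (eBayes with an intensity trend) over 18769 probe sets, adjusted by Benjamini-Hochberg, with calls at 0.05. The fit was tested on simulated data. The members and lists were chosen with earlier results of these data known. Named genes were the members, in each lysosomal list the 3 smallest unadjusted p above background, the brightest markers, and the 3 genes most correlated with each low gene; others complete a count or are said to be chosen otherwise. Deviations of same-numbered arrays correlated at 0.372, 0.288 and 0.142. On this ground, not on the labels, same-numbered arrays were treated as pairs in the alternative fits with a replicate block. The main fit, which gave the standard errors, intervals and main calls, was unpaired. The pairing is uncertain, since homozygous replicate 3 correlated at 0.275 with heterozygous replicate 2. The number of arrays limits the precision.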

Additional observations from a re-analysis of the deposited data

How the results depend on the processing

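With the replicate block 0 probe sets were lower, 0 higher and 0 members called, against 59, 11 and 3 without it, and the block leaves fewer degrees of freedom. With the block and without the dimmer 50%, a pair of choices made after seeing the data, 3 members were called, with 18 probe sets higher. The replicate number as a random effect, also chosen after seeing the data, gave 117 lower and 50 higher probe sets and 3 members called. Shifting arrays to a common median gave 117 and 35, and a fit without the dimmer 50% gave 123 and 34. In these last 3 fits, and with the mean of all probe sets of a gene, 1 other lysosomal gene was called lower, CG3376 each time. Without the intensity trend 35 probe sets were lower and 2 members called, with Hexo2 lost (limma adjusted p = 0.0574), and with values under 3 set to 3, 7 were higher. Without both arrays numbered 1, chosen after seeing the data, 9 were lower, 0 higher and 0 members called. With 1 array left out, 6 to 54 probe sets were lower, 0 to 12 higher and 0 to 3 members called. The difference ranged from -0.30 to 0.39 for Ppt1, from -0.26 to 0.28 for Ppt2 and from -0.12 to 0.52 for cathD in those fits. Without both arrays numbered 1 it was -0.14 for Ppt1 and 0.026 for Ppt2. The cause of these changes was not tested. Every call of the fit without the block ended under the fixed block over all probe sets.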

Other observations

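Heterozygous replicate 1 held 2 isolated signals. Npc2e, a sterol-binding family member named after its values were seen, was at 6.11 there and between 2.24 and 2.25 on the other 5 arrays. Acp36DE, a seminal fluid protein of the accessory gland, was at 6.71 in the same array and between 2.14 and 2.15 elsewhere, while SP, another accessory gland product, was under the background limit on every array.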
